A study of Mus musculus with 4 samples.

Results

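The miR-23, miR-27 and miR-24 microRNAs come from 2 paralogous clusters of 3 hairpins each, miR-23a/27a/24-2 and miR-23b/27b/24-1. The 9 mature arms described here were taken by name from the deposited count files, which list 1907 mature miRNAs per library. They are the 5 arms mmu-miR-23a-3p, mmu-miR-23b-3p, mmu-miR-27a-3p, mmu-miR-27b-3p and mmu-miR-24-3p, and the 4 arms mmu-miR-27a-5p, mmu-miR-27b-5p, mmu-miR-24-1-5p and mmu-miR-24-2-5p. Small RNA was sequenced from liver of C57BL/6 mice aged 15 weeks that had received thioacetamide (TAA), a hepatotoxin that causes fibrosis in rodents, or were labelled control. The TAA mice had been injected intraperitoneally with 200 mg/kg 3 times a week for 10 weeks, and the sources used here do not say what the control mice received. Each group had 2 libraries, called biological replicates in the design text, which does not name animals or batches. p-values therefore measure the spread between these libraries, in which animals, batches and technical steps cannot be told apart. The libraries held 43836911 (TAA 1), 48878003 (TAA 2), 42609845 (control 1) and 46224018 (control 2) miRNA counts.

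Each cluster is transcribed as 1 precursor from which the hairpins are cut, and the mature arms load into Argonaute and repress mRNAs that match their seed. Both clusters are known for high expression in endothelial cells, where they act in angiogenesis. miR-27 represses mRNAs of lipid metabolism and adipogenesis. In rat hepatic stellate cells, the liver's main source of collagen in fibrosis, inhibiting miR-27a and miR-27b restored lipid droplets. In mouse fetal liver cells the miR-23b cluster has been reported to repress Smad mRNAs of the TGF-beta pathway.

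The seed, bases 2 to 8, is in capitals below, because it sets which arms share targets. The sequences are RefSeq's (GRCm38.p6), which held 8 of the 9 members; miR-23b-3p is named only. The miR-27 pair shares 1 seed, the 5p arms of miR-24 share another, and miR-23a-3p and miR-24-3p have 1 each.
mmu-miR-27a-3p: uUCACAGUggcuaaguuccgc
mmu-miR-27b-3p: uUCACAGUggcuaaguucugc
mmu-miR-23a-3p: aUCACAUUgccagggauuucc
mmu-miR-24-3p: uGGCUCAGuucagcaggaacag
mmu-miR-24-2-5p: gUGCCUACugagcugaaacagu
mmu-miR-24-1-5p: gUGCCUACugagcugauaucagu
mmu-miR-27a-5p: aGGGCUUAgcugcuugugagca
mmu-miR-27b-5p: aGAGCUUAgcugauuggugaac

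miR-27a-3p and miR-27b-3p differ at 1 of 21 bases, C19U, counted from the 5′ end with the miR-27a base first. Their 5p arms differ at 8 of 22 bases, among them G3A inside the seed, so that these passenger arms do not share a seed as the 3p arms do. miR-24-2-5p and miR-24-1-5p matched at 17 of 22 bases, with all differences outside the seed. miR-24-3p is identical in both hairpins, and its single row cannot be divided between the clusters. Among the 1623 miRNAs of the files that had a RefSeq sequence, no other shared a member's seed except 4 with the miR-24-3p seed, miR-5124b, miR-6369, miR-6410 and miR-6413, and these had 0 counts in all 4 libraries.

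In GRCm38 the miR-23a/27a/24-2 cluster covers 404 bases of the plus strand of chromosome 8, with Mir23a at 84208518 to 84208592, Mir27a at 84208672 to 84208758 and Mir24-2 at 84208815 to 84208921. Mir23a and Mir27a lie outside other annotated genes, and Mir24-2 overlaps an exon of the long non-coding RNA Gm26532 on its strand. The miR-23b/27b/24-1 cluster covers 792 bases of the plus strand of chromosome 13, with Mir23b at 63300484 to 63300557, Mir27b at 63300712 to 63300784 and Mir24-1 at 63301208 to 63301275. It lies in the protein-coding gene 2010111I01Rik, in an intron of all 9 overlapping transcripts for Mir23b. Mir27b and Mir24-1 also overlap exons, of 1 of 9 and 4 of 11 transcripts. Introns of Fancc, a DNA repair gene, lie on the opposite strand. Both miR-24 hairpins also have an antisense miRNA gene, Mir3074-1 or Mir3074-2. miR-3074-5p had 39 and 64 counts in TAA liver and 33 and 36 in control liver, miR-3074-1-3p 18 and 17 against 11 and 15, and miR-3074-2-3p 0 throughout. The sources used here do not say whether counting used strand. HTSeq's row for ambiguous reads was at most 0.00143% of a file's total, and the part of antisense reads in the miR-24 counts was not tested.

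None of the members passed the test for a difference between TAA-treated and control liver. The count of members past an adjusted p of 0.05 was 0 of 9 in edgeR's quasi-likelihood test, with Benjamini-Hochberg adjusted p over all 644 miRNAs tested, beside 16.6% of all miRNAs tested (14.0% higher and 2.64% lower in TAA). All 9 members passed the filter on low counts. DESeq2 and limma-voom also called 0 members, and 0 had an unadjusted p under 0.05, beside 25.6% of all miRNAs tested. The members' median log2 fold change, TAA over control, was -0.03, beside -0.0042 over all miRNAs tested. Their median absolute log2 fold change was 0.046, beside 0.27 over all miRNAs tested. These 2 medians were not matched for abundance. The members' standard errors (SE) were 0.097 to 0.22, beside a median of 0.24 over all miRNAs tested. Of 137 miRNAs tested with a mean of at least 100 CPM, 18 passed an adjusted p of 0.05 in edgeR. The groups overlapped in 8 of the 9 members, whereas 55.3% of all miRNAs tested had no overlap (29.7% with TAA above and 25.6% with TAA below). Values below are CPM, the counts of an miRNA relative to its library's TMM-scaled size, and means are given ± SD (n = 2 per group). Livers were sequenced whole, so fewer cells of a type and less RNA per cell cannot be told apart.

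**Figure D1:**
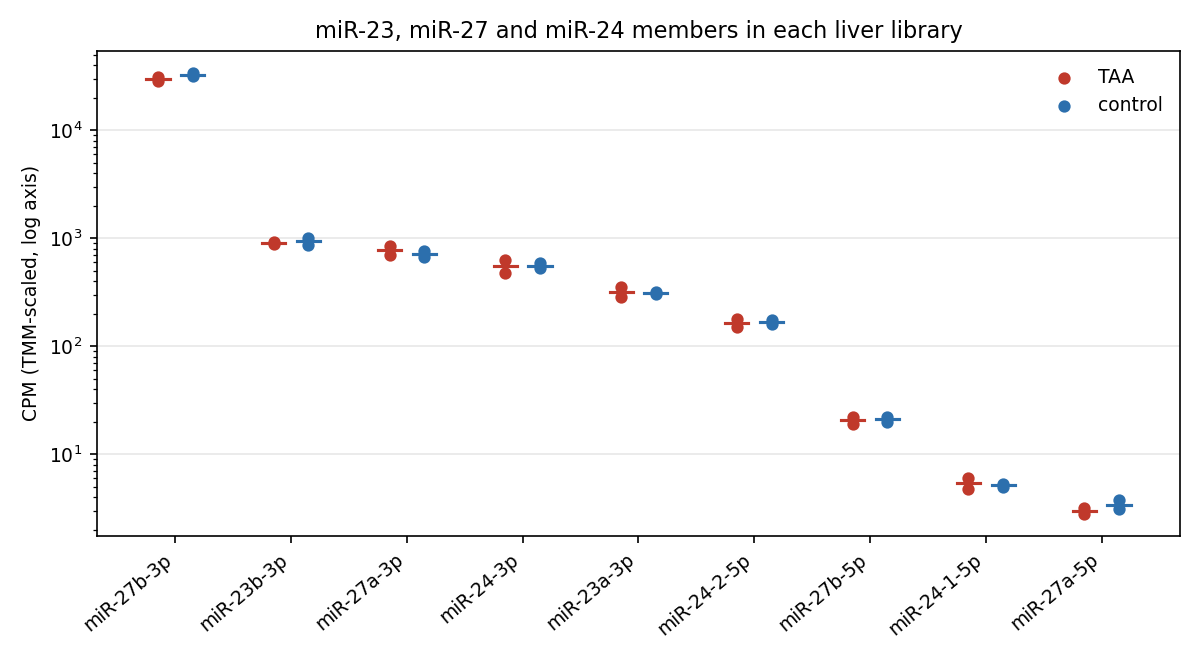
CPM of the 9 members (log axis) in each library, TAA left and control right, with points for libraries and lines for group means. miR-27b-3p lies between 28569 and 34140 CPM and the next member between 859 and 1017 CPM, and the groups overlap in each member except miR-27b-3p.

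mmu-miR-27b-3p, the guide arm of its hairpin, was by far the most abundant member. It had 30909 and 28569 CPM in TAA liver, against 31658 and 34140 CPM in control liver. Both TAA libraries lay below both control libraries, a separation found in 25.6% of the miRNAs tested. The means were 29739 ± 1655 CPM in TAA liver and 32899 ± 1755 CPM in control liver, with a log2 fold change of -0.15 (SE 0.097, 95% interval -0.37 to 0.08, edgeR adjusted p = 0.411). As a fraction of its library's miRNA counts it overlapped between the groups, at 3.20% and 2.999% in TAA liver against 3.15% and 3.16% in control liver. By count miR-27b-3p ranked 8 in TAA 1 and TAA 2, against 7 in control 1 and 8 in control 2. It made up 91.2% and 91.9% of the reads of all 9 members in TAA liver, against 91.9% and 92.8% in control liver, so that a sum over the members is nearly its level alone.

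mmu-miR-27a-3p carries the same seed from the other cluster. It had 852 and 703 CPM in TAA liver, against 677 and 756 CPM in control liver, and TAA 2 lay between the controls. Its log2 fold change was 0.12 (SE 0.14, 95% interval -0.197 to 0.43, edgeR adjusted p = 0.684). Before TMM scaling, as a share of miRNA counts, both TAA libraries lay above both controls, at 0.0883% and 0.0738% against 0.0672% and 0.0700%. Whether its groups overlap thus depended on the scaling.

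The miR-23 arms were of intermediate abundance. mmu-miR-23b-3p had 934 and 883 CPM in TAA liver, against 1017 and 859 CPM in control liver, both TAA values lying inside the control range. Its log2 fold change was -0.05 (SE 0.13, edgeR adjusted p = 0.886). mmu-miR-23a-3p, which represses glutaminase mRNA in human cells, had 356 and 285 CPM in TAA liver, against 319 and 307 CPM in control liver. Here the controls lay inside the TAA range, and the log2 fold change was 0.04 (SE 0.15, edgeR adjusted p = 0.916).

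mmu-miR-24-3p, a repressor of cell cycle mRNAs, had 632 and 475 CPM in TAA liver, against 587 and 531 CPM in control liver. The TAA libraries differed more between themselves, by 1.33-fold, than the groups did, and the log2 fold change was -0.02 (SE 0.16, 95% interval -0.38 to 0.35, edgeR adjusted p = 0.966). TAA 1 was the higher TAA library in 7 of the 9 members. The exceptions were miR-27a-5p and miR-27b-5p.

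Among the 5p arms, miR-24-2-5p was the most abundant, with 179 and 149.5 CPM in TAA liver, against 161 and 176 CPM in control liver. Its counterpart miR-24-1-5p had 6.09 and 4.76 CPM in TAA liver, against 5.34 and 5.01 CPM in control liver. miR-27b-5p had 19.2 and 22.2 CPM in TAA liver, against 19.9 and 22.3 CPM in control liver, and miR-27a-5p had 2.82 and 3.20 CPM in TAA liver, against 3.09 and 3.74 CPM in control liver. The groups overlapped in all 4 arms, and their log2 fold changes were -0.03 (miR-24-2-5p, SE 0.15), 0.07 (miR-24-1-5p, SE 0.21), -0.03 (miR-27b-5p, SE 0.18) and -0.18 (miR-27a-5p, SE 0.22). Their smallest edgeR adjusted p was 0.694, for miR-27a-5p. This arm was also the least covered, with 128 and 164 counts in TAA liver against 131 and 160 in control liver, and its interval was the widest, from -0.70 to 0.33.

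The 5p arms of the miR-23 hairpins are not among the 9. miR-23b-5p had 27 and 24 counts in TAA liver, against 18 and 22 in control liver, and did not pass (edgeR adjusted p = 0.878). miR-23a-5p had 5 and 0 counts in TAA liver, against 3 and 7 in control liver, and was below the filter on low counts.

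**Figure D2:**
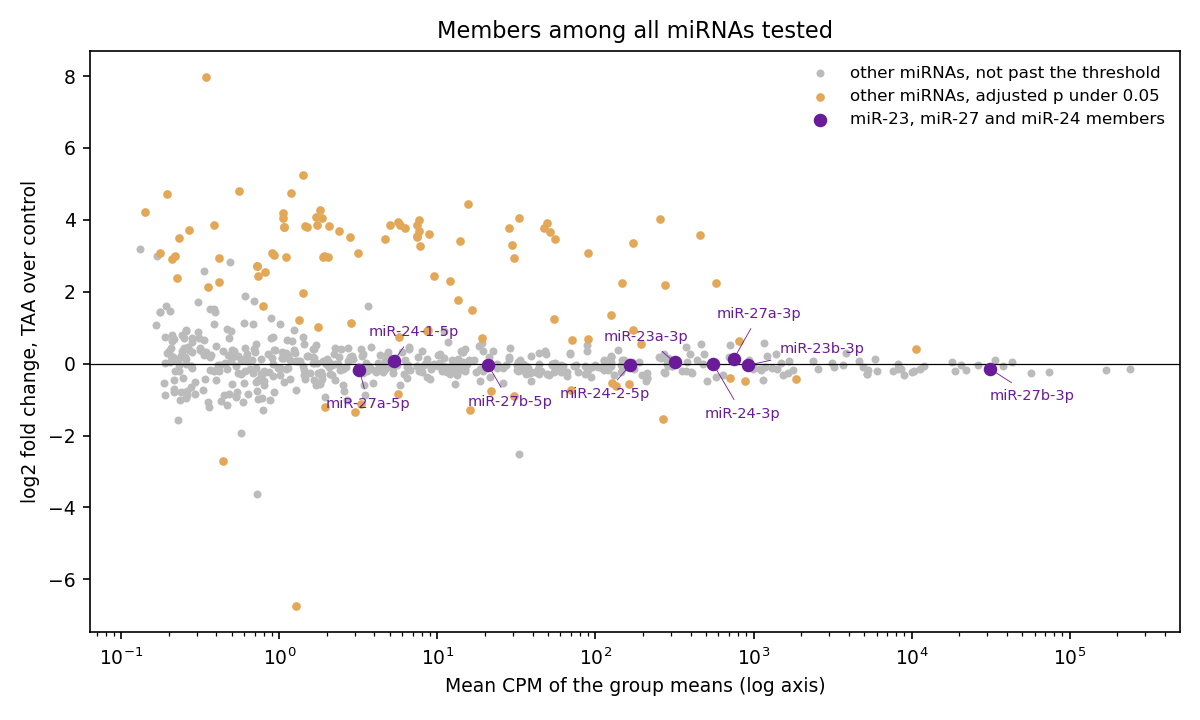
log2 fold change (TAA over control) against mean CPM (log axis) for the 644 miRNAs tested, with the 9 members in purple and other miRNAs past an adjusted p of 0.05 in orange. The member farthest from 0 is miR-27a-5p, at -0.18.

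For all 9 members the 95% interval of the log2 fold change lay inside -1 to 1, from -0.70 at the lowest bound to 0.56 at the highest. A change of 2-fold or more in either direction lay outside each interval, while changes smaller than the bounds could not be told from none. For miR-27b-3p the interval ran from 22.6% lower to 5.61% higher in TAA liver, and for miR-27a-3p from 12.8% lower to 34.9% higher. A p that misses the threshold does not show that the levels were equal.

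The sign of most members was not fixed by these libraries. Without TAA 1 only miR-27b-5p of the 9 members was positive, and without TAA 2, 5 of 9 were. miR-24-3p had a log2 fold change of -0.24 without TAA 1 and 0.18 without TAA 2. miR-27b-3p and miR-27a-5p were negative in all 12 alternative fits, between -0.32 and -0.02 and between -0.36 and -0.05. The member median followed the scaling of the whole table. It was -0.20 with upper-quartile factors, where the median of all miRNAs was -0.17, and 0.098 with library size alone, where that of all miRNAs was 0.12. Relative to all miRNAs it was 0.030 and 0.020 lower in these fits and 0.023 lower with TMM factors. Without TAA 1 it was 0.129 lower than the median of all miRNAs, and without TAA 2 it was 0.103 higher.

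**Figure D3:**
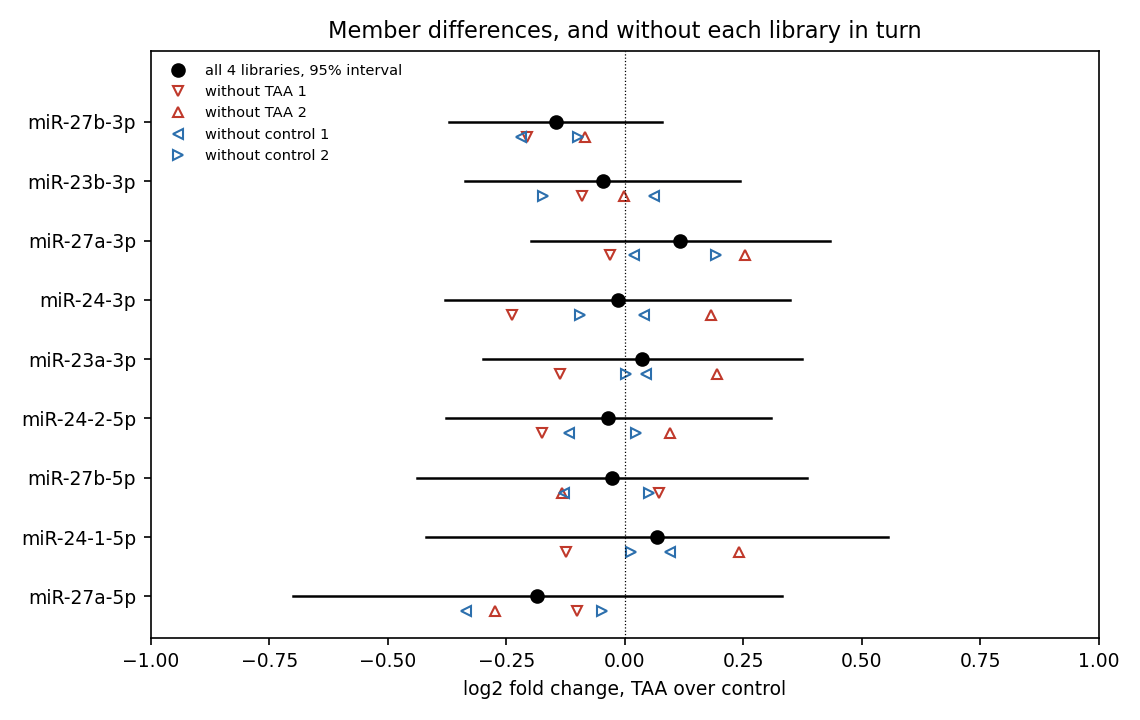
log2 fold change of each member (TAA over control) with its 95% interval from edgeR in black, and below it the value without each library in turn as open symbols. All intervals cross 0, and for 7 of the 9 members the open symbols lie on both sides of 0.

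The level of the members was ordered alike in all 4 libraries. A small RNA read usually spans a whole mature miRNA, here 21 to 23 bases, so CPM was not divided by length, and unequal adapter ligation, a known property of small RNA libraries, was not corrected. In falling order of CPM they were miR-27b-3p, miR-23b-3p, miR-27a-3p, miR-24-3p, miR-23a-3p, miR-24-2-5p, miR-27b-5p, miR-24-1-5p and miR-27a-5p. No pair of neighbours in this order overlapped over the 4 libraries. The closest were miR-23b-3p, with at least 859 CPM, and miR-27a-3p, with at most 852 CPM.

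Arms of 1 cluster, cut from a shared precursor, were read at very unequal levels. miR-27b-3p had 33.1 and 32.4 times the counts of its cluster mate miR-23b-3p in TAA liver, against 31.1 and 39.8 times in control liver. miR-27a-3p had 2.39 and 2.46 times the counts of miR-23a-3p in TAA liver, against 2.12 and 2.47 times in control liver. In both clusters the miR-27 guide arm exceeded the miR-23 guide arm in every library. The ratios of the groups overlapped in both clusters.

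The clusters differed in which paralog prevailed. miR-23b-3p and miR-27b-3p exceeded miR-23a-3p and miR-27a-3p in every library, while for the 5p arms of miR-24 the chromosome 8 copy prevailed. miR-24-2-5p took 96.7% and 96.9% of the reads of both miR-24 5p arms in TAA liver, against 96.8% and 97.2% in control liver. miR-23a-3p took 27.6% and 24.4% of the miR-23 3p reads in TAA liver, against 23.8% and 26.3% in control liver. miR-27a-5p took 12.8% and 12.6% of the miR-27 5p reads in TAA liver, against 13.5% and 14.4% in control liver, so that the miR-27 passenger arms were less uneven than the guide arms. The sources used here do not say how reads that match more than 1 locus were assigned. HTSeq's row for non-unique alignments was 0 in all 4 files. miR-24-3p, whose sequence is the same in both hairpins, still had 22702 to 28704 counts. How its reads were placed was not tested.

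Of the 3p paralog ratios, those of miR-23 and miR-27, only that of miR-27 had no overlap between the groups. miR-27a-3p took 2.68% (95% Wilson interval 2.66 to 2.71) and 2.40% (2.38 to 2.43) of the reads of both miR-27 3p arms in TAA liver, against 2.09% (2.07 to 2.12) and 2.17% (2.14 to 2.19) in control liver. These intervals cover counting error only, and not the assignment of reads between 2 arms that differ at 1 base. The log2 ratio of miR-27a-3p over miR-27b-3p was -5.26 ± 0.12 in TAA liver and -5.52 ± 0.037 in control liver (SD, n = 2 each), a difference of 0.26 or 19.7%. The two-sided exact permutation test gave p = 0.333 (adjusted p = 0.667 over the 4 ratios compared), and 0.333 is the smallest p that 2 libraries against 2 allow.

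A ratio within a library does not depend on the scaling factors, which the levels do. In a limma fit over 41 paralog pairs (hairpins lettered a and b, and the miR-24 5p pair), chosen after seeing the data, the miR-27 3p difference had a 95% interval of -0.02 to 0.54 and an adjusted p of 0.203. In that fit 0 pairs passed an adjusted p of 0.05, and 10 (24.4%) had an unadjusted p under 0.05. The groups did not overlap in 53.7% of the pairs, so that 2 of the 4 ratios of these clusters stand near that background. The other ratio without overlap was miR-27a-5p over miR-27b-5p, with a log2 ratio of -2.78 ± 0.023 in TAA liver and -2.63 ± 0.075 in control liver, a difference of -0.15 in the opposite direction (-0.21 to -0.10 without each library in turn). The ratios of miR-23a-3p over miR-23b-3p and of miR-24-2-5p over miR-24-1-5p differed by 0.07 and -0.10, with overlapping groups (exact permutation p = 0.667 each, adjusted p = 0.667).

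**Figure D4:**
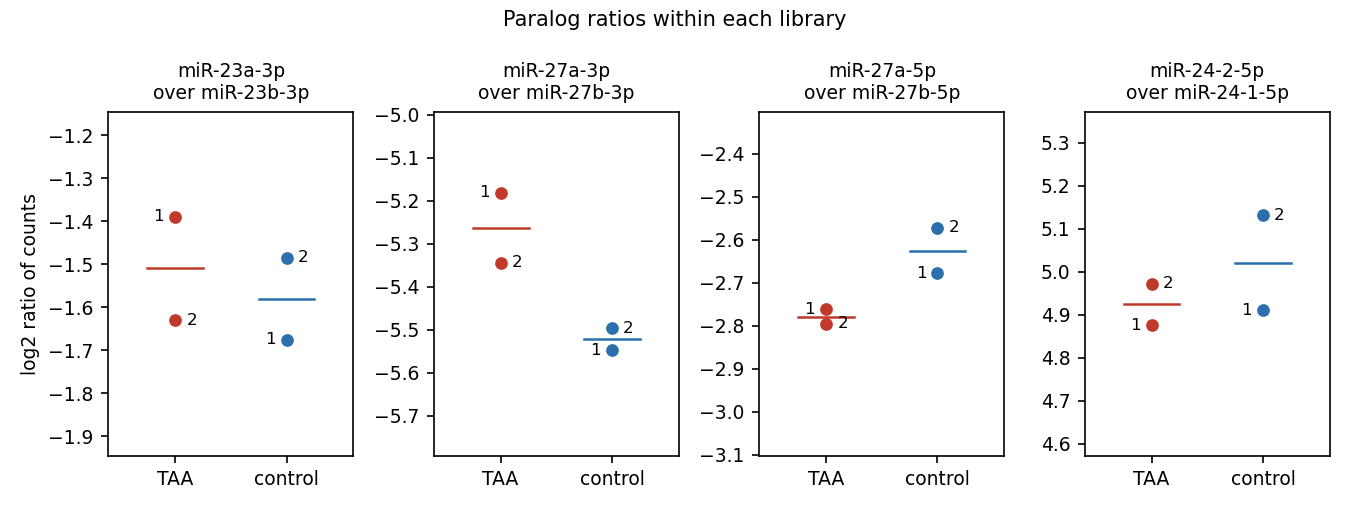
log2 ratio of counts of the miR-23a/27a/24-2 copy over the miR-23b/27b/24-1 copy in each library, TAA left and control right, with replicate numbers beside the points and lines at group means. All panels span 0.8 log2 units around their own centre, and the groups are apart in both miR-27 panels, in opposite directions.

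In both miR-27 hairpins the 3p arm outnumbered the 5p arm in every library. In miR-27b the 3p arm had 1613 and 1285 counts for each 5p count in TAA liver, against 1594 and 1530 in control liver. In miR-27a it had 302 and 219.9 in TAA liver, against 219 and 202 in control liver. miR-24 stood apart, with 5p arms that took 22.7% and 24.5% of all its reads in TAA liver, against 22.1% and 25.4% in control liver. Since miR-24-3p is shared by both hairpins, no arm ratio was formed for either one.

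The log2 ratio of 5p over 3p counts differed by -0.29 in miR-27a (SE 0.22, 95% interval -0.86 to 0.27) and by 0.12 in miR-27b (SE 0.20, 95% interval -0.38 to 0.62), both with a limma adjusted p of 0.985. In miR-23b, whose 5p arm had only 18 to 27 counts, it differed by 0.21 (SE 0.25, 95% interval -0.41 to 0.82, limma adjusted p = 0.985). The miR-27a difference was -0.066 without TAA 1 and -0.52 without TAA 2. Of 150 hairpins tested, 0 (0.00%) passed the threshold of limma, and 5 (3.33%) had an unadjusted p under 0.05. Leaving out control 1 or control 2 brought 11 and 13 hairpins past the threshold, with miR-27a and miR-27b not among them. The excess of miR-27a-3p over miR-27a-5p in TAA 2 lay only just above that in control 1.

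Markers of liver cell types were measured in the same libraries. miR-122-5p, which marks hepatocytes, had 17376 and 17500 CPM in TAA liver, against 18285 and 21608 CPM in control liver. Of 7 hepatocyte miRNAs, 0 passed in edgeR. For this and the lists below, 16.6% of all miRNAs tested passed (14.0% higher and 2.64% lower in TAA). Their log2 fold changes ran from -0.33 (miR-101b-3p) to -0.14 (miR-194-5p), with a median of -0.24. miR-192-5p, which had the highest level, stood at -0.16. In TMM-scaled CPM both TAA libraries lay below both controls in all 7, a separation found in 25.6% of the miRNAs tested. As shares of miRNA counts before this scaling, the groups overlapped in miR-122-5p, miR-192-5p and miR-194-5p. The 2 endothelial miRNAs, miR-126a-3p and miR-126a-5p, summed to 26409 and 22655 CPM in TAA liver, against 25346 and 29185 CPM in control liver, and neither passed. Of 7 mesenchymal miRNAs, miR-214-3p rose (log2 fold change 0.65) and miR-10b-5p fell (-1.54), while the most abundant, miR-143-3p, had a log2 fold change of -0.04. Of 7 leukocyte miRNAs, miR-150-5p, miR-155-5p and miR-342-3p rose and 0 fell; the most abundant, miR-142a-5p, had a log2 fold change of 0.57 without passing. All 4 erythroid miRNAs rose in the edgeR test, miR-486a-5p being the most abundant, and their sum was 530 CPM in TAA 1 and 1926 CPM in TAA 2, against 325 and 196 CPM in control liver. Without TAA 2 none of the 4 erythroid miRNAs passed, with edgeR adjusted p values of 0.0754 to 0.477.

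Other miRNAs of the processes that the members are linked with moved in part. Of 14 miRNAs linked with TGF-beta signalling or fibrosis, miR-214-3p rose, and miR-200c-3p, miR-29c-3p and miR-29b-3p fell, with a list median of -0.24 and miR-192-5p again the most abundant. miR-29 represses collagen mRNAs and miR-200 represses the Zeb factors of epithelial to mesenchymal transition. Of 10 other miRNAs of hepatic lipid metabolism, miR-34a-5p, a target of p53, rose (log2 fold change 1.25) and 0 fell, with a list median of -0.21 and -0.24 for the most abundant, miR-148a-3p. The lists share members with each other and none with the 9. Across all these lists 13 different miRNAs passed, and over all miRNAs tested 16.6% did. Fewer of the 13 passed when 1 TAA library was left out. Calls over the whole table fell as well, and the cause was not tested. Without TAA 1, 5 of the 13 passed (miR-150-5p and the 4 erythroid miRNAs), and without TAA 2 only miR-150-5p did. Without control 1, 12 passed and miR-200c-3p did not, and without control 2, 11 passed and miR-214-3p and miR-29b-3p did not.

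Profiles over the 4 libraries were compared by the root mean square difference of log2 CPM, each centred on its mean, among 137 miRNAs with a mean of at least 100 CPM. miR-24-3p lay closest to miR-23a-3p of all 136 others, at 0.053, and its nearest miRNAs outside the clusters were miR-195a-5p and miR-143-3p. miR-27a-3p lay closest to miR-181c-5p and miR-99a-5p outside the clusters, at 0.021 and 0.033, and had its cluster mates miR-24-2-5p and miR-23a-3p at ranks 6 and 10. miR-23a-3p lay closest to miR-181a-5p and miR-322-3p outside the clusters. miR-27b-3p lay closest to miR-200b-3p and miR-20a-5p, and its cluster mate miR-23b-3p was at rank 63. miR-23b-3p lay closest to miR-221-3p and let-7a-5p, with miR-27b-3p at rank 49. miR-23a-3p and miR-27a-3p of chromosome 8 were at ranks 19 and 10 to each other. With 4 libraries and differences of this size, these ranks are a description only.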

How the data were processed

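Each deposited file gives 1 library's raw counts of reads for every mature miRNA. Per the labels' protocols, RNA came from an miRNeasy kit and libraries from a TruSeq small RNA kit. Bowtie, HTSeq and mm10 are the aligner, counter and genome build named in the submitters' processing notes. Versions, settings and the handling of multiply aligned reads are not given in the sources used. The 5 summary rows, 31.3% to 34.6% of each file's total, entered neither the library sizes nor the tests.

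Counts were filtered with filterByExpr, scaled with TMM and tested with edgeR 4.0.16 in R 4.3.3, over all miRNAs. The standard error is the log2 fold change divided by the square root of F. Arm and paralog ratios were log2 ratios of counts plus 0.5; arm ratios were tested with limma 3.58.1 where both arms averaged 20 counts or more, and paralog ratios with exact permutation. Shares have 95% Wilson intervals, which cover counting error only. Before TMM scaling, 1 CPM corresponds to between 42.6 and 48.9 counts. The TMM factors that multiply these library sizes ran from 0.925 (control 2) to 1.05 (TAA 2). Scripts were tested on simulated data. DESeq2 1.42.0, limma-voom, other scalings and filters, a replicate block and leaving out each library were alternatives.

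The members and lists were chosen with earlier results of these data known. Named were the members, the other arms of their hairpins, the 2 nearest profiles per 3p member, and list members past the threshold with the most abundant one. The antisense miR-3074 arms and the miRNAs sharing the miR-24-3p seed were added after their values were seen.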

Additional observations from a re-analysis of the deposited data

How the results depend on the processing

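In all 12 alternative fits, 0 of the 9 members passed the threshold. The number of miRNAs that passed over the whole table ranged without each library in turn from 49 to 131, those higher from 47 to 98 and those lower from 2 to 33, against 107, 90 and 17 with all libraries; 32 were lower with upper-quartile factors, and 32 without a filter on low counts. With upper-quartile factors miR-23a-3p, miR-27a-3p and miR-24-1-5p turned to log2 fold changes of -0.13, -0.057 and -0.10, and with library size alone miR-23b-3p, miR-27b-5p, miR-24-3p and miR-24-2-5p turned to 0.070, 0.098, 0.10 and 0.088. Without each library in turn the log2 fold change ranged from -0.14 to 0.19 for miR-23a-3p, -0.17 to 0.062 for miR-23b-3p, -0.031 to 0.25 for miR-27a-3p, -0.13 to 0.073 for miR-27b-5p, -0.24 to 0.18 for miR-24-3p, -0.12 to 0.24 for miR-24-1-5p and -0.17 to 0.095 for miR-24-2-5p. The arm ratio difference ranged from -0.52 to -0.066 for miR-27a and from -0.047 to 0.28 for miR-27b, and hairpins past the arm-ratio threshold from 0 to 13; 1 passed where each arm had a mean of at least 100 counts. The paralog difference ranged from -0.0497 to 0.19 for miR-23a-3p over miR-23b-3p and from -0.21 to 0.014 for miR-24-2-5p over miR-24-1-5p, while miR-27a-3p over miR-27b-3p stayed between 0.18 and 0.34. The cause of these changes was not tested. Where 1 library was left in a group, it was assumed to vary like the other group. With the replicate block 110 miRNAs passed, against 107 without it, and 0 members in either. The shared replicate numbers are not stated to pair the libraries: deviations from the group means correlated at -0.13 between libraries of the same number, over the 644 miRNAs tested. miR-27a-5p, with 128 to 164 counts, had the widest interval of the 9 members.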
